A study of Mus musculus with 32 samples.

Results

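The 10 genes described here, Pecam1, Cdh5, Kdr, Tek, Tie1, Flt1, Cldn5, Emcn, Egfl7 and Sox17, are textbook genes of the endothelium, the cell layer that lines blood vessels. They were picked by name and matched by Ensembl identifier, and all 10 were found among the 48576 gene identifiers measured. Their transcripts were read in RNA-seq libraries of the forebrain (Fb) and midbrain (Mb) of mouse embryos at embryonic day 9.5, dissected as whole tissue with the vessels that run through and over it. The study compared wild-type (WT) embryos with embryos lacking combinations of the type II cadherins Cdh6, Cdh8 and Cdh11, adhesion molecules of the neural tube.

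The 32 libraries, 16 from each tissue, were, in each tissue, 6 of WT embryos, 4 of Cdh6/8/11 triple knockouts with exencephaly, that is, an open head neural tube (TKO_Ex), 3 of Cdh8/11 double knockouts with exencephaly (DKO_Ex) and 3 of double knockouts with a cranial defect (DKO_CD), which the labels describe as Cdh6/8 and the study's text as Cdh8/11. All carried the strain label B6C3F1. The knocked-out alleles are small CRISPR/Cas9 deletions within the exons that hold the start codons, made together by injection of fertilized eggs and passed through the germ line, so no deletion is specific to vessels. Mutants came from crosses of triple heterozygotes and WT embryos from WT crosses. For all 12 double knockout libraries the column heading and the GEO record name opposite double knockout groups. Headings were followed here, and under the records the names DKO_Ex and DKO_CD would change places.

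Endothelial cells of the head at this stage form a plexus around the neural tube, from which sprouts enter the brain wall. Vascular endothelial growth factor (VEGF), made by the neural tissue, acts on these cells through the receptors encoded by Kdr and Flt1, and angiopoietins act through the receptor encoded by Tek, with Tie1 as its relative. Pecam1, Cdh5, Cldn5 and Emcn encode proteins of the endothelial surface and its junctions. Egfl7 encodes a secreted protein of endothelial cells and hosts the miRNA gene Mir126a, and Sox17 is a transcription factor of arterial endothelium. Cdh5 (VE-cadherin) is itself a cadherin. It lies on chromosome 8 at chr8:104101625-104144511 of GRCm38, 1.32 Mb from Cdh11 and 4.69 Mb from Cdh8, whereas Cdh6 lies on chromosome 15.

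The sequences that follow, from RefSeq, show the regulatory features of the gene with the highest level and of a member that shares a motif with it. The first is the mature miRNA of the Mir126a hairpin (chr2:26591357-26591429), which sits within Egfl7 (chr2:26580014-26593120). Of 19 annotated Egfl7 transcripts, 9 span the hairpin, and 1 Egfl7 exon overlaps it. Capitals mark the seed, bases 2 to 8. The others are stretches upstream of the start sites of Egfl7 (chr2:26580951-26581038) and Emcn (chr3:137340865-137340952), both on the plus strand of GRCm38.p6. Capitals there mark AACAGGAA, an extended form of the GGAA core bound by ETS factors, which Emcn holds on the other strand.
mmu-miR-126a-3p: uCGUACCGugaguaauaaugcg
Egfl7 promoter: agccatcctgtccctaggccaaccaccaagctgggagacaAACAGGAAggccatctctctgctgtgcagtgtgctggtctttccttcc
Emcn promoter: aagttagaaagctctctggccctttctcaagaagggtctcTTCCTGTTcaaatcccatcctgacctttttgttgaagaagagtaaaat

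Promoter windows, from 250 bases before to 50 after a start site, were held for 7 of the 10 genes (9 windows), and not for Pecam1, Cdh5 and Sox17. AACAGGAA, searched on both strands, occurred in the windows of Egfl7 and Emcn and in 2.65% of 32851 promoters. CAGGAAG, which overlaps it and also holds GGAA, was found in the same 2 genes and in 13.3% of all promoters. GGAA itself was in 96.0% of promoters and in those of 6 of the 7 genes. The SOX-type motifs ACAAAG (18.7% of all promoters) and ACAAT (31.0%) were each found in 2 of the 7 genes, Egfl7 and Tek for ACAAAG and Emcn and Tek for ACAAT. These matches describe letters only. The Mir126a gene itself was listed at 0 in every library. These were directional RNA-seq libraries not made for small RNAs, so this value does not show whether the miRNA was present.

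Levels are in FPKM, fragments scaled by transcript length and library size, so genes can be ranked per length. Depth was read from the spacing of low FPKM values, which put the libraries at about 2.03 to 3.38 M (mega) fragments. The targeted genes were checked first. Cdh6 in the Mb was 2.47 ± 0.955 FPKM in WT (SD, n = 6), and in TKO_Ex it was between 0.345 and 0.388 in 3 libraries but 3.10 in replicate 3. The Fb library of that replicate also held a Cdh6 level of WT size, 3.74 FPKM, against 0.572 to 1.84 in the other 3. Cdh8 in the Mb was 4.93 ± 2.98 in WT and 1.49 ± 0.634 in TKO_Ex (n = 4). Cdh11 transcripts remained at 15.9 ± 0.980 in the TKO_Ex Mb against 21.9 ± 3.76 in WT. In the double knockouts the Mb levels (n = 3) of Cdh6 were 2.48 ± 0.631 in DKO_Ex and 1.72 ± 0.410 in DKO_CD, those of Cdh8 1.93 ± 0.487 and 1.24 ± 0.230, and those of Cdh11 18.2 ± 0.561 and 22.1 ± 5.29. FPKM are read over the whole gene, most of which lies outside the deletions, so these levels are a weak check of the labels. The regional markers followed the tissue labels, except that WT Mb replicate 5 had the lowest summed Mb markers of the Mb libraries (83.3 FPKM) and the highest summed Fb markers (63.5 FPKM), and that summed Mb markers in the Fb reached 87.2 FPKM in DKO_CD replicate 2 and 73.4 in TKO_Ex replicate 3, against 25.7 to 55.5 in the WT Fb. Leaving out WT Mb replicate 5 changed no member's call. Macrophage markers summed to at most 5.44 FPKM in any library, Adgre1 was listed at 0 in all 32, and of 10 mural cell markers, Rgs5, Cspg4 and Kcnj8 averaged below 0.1 FPKM while Notch3 (20.8 FPKM), Tagln (10.8), Pdgfrb (5.42) and Mcam (5.02) averaged above 5 FPKM, as did Acta2. Primitive red cell genes summed to between 2797 and 24127 FPKM, a wide range between libraries.

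All 10 endothelial genes were detected in every library. Egfl7 stood first, with 44.7 ± 12.1 FPKM (SD over 32 libraries, range 23.4 to 90.0), and its lowest library lay above the highest of every other member. Cldn5, which encodes the tight-junction protein claudin-5, followed at 14.3 ± 3.37 FPKM and exceeded Cdh5 in 28 of 32 libraries. Cdh5 averaged 9.78 ± 2.51 FPKM and was above Kdr in 29 libraries. Kdr, the main signalling receptor for VEGF, averaged 7.60 ± 1.52 FPKM and was above Emcn in 24. These 4 genes thus kept this order in most libraries.

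The lower part of the order was less distinct. Emcn, which encodes the sialomucin endomucin, averaged 6.13 ± 2.76 FPKM and was above Pecam1 in 25 libraries. Pecam1 (3.91 ± 1.09 FPKM) was above Tie1 (3.76 ± 1.07 FPKM) in 15 of 32 libraries, so these neighbours did not differ beyond their spread. Tie1 exceeded Sox17 (3.32 ± 1.65 FPKM) in 20 libraries and Sox17 exceeded Flt1 (2.81 ± 0.719 FPKM) in 21, again within the spread. Flt1, a VEGF receptor that also acts as a decoy, was above Tek in 26 libraries. Tek, the angiopoietin receptor, was lowest at 2.23 ± 1.04 FPKM. The coefficient of variation across libraries was highest for Sox17 (49.9%) and Tek (46.8%), followed by Emcn, and at most 28.5% for the other 7 genes. Sox17 rested on few fragments, about 4.16 in its lowest library and 25.4 in the median library, against a median of 204 for Egfl7. The part of counting in the spread of the low genes was not tested.

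**Figure D1:**
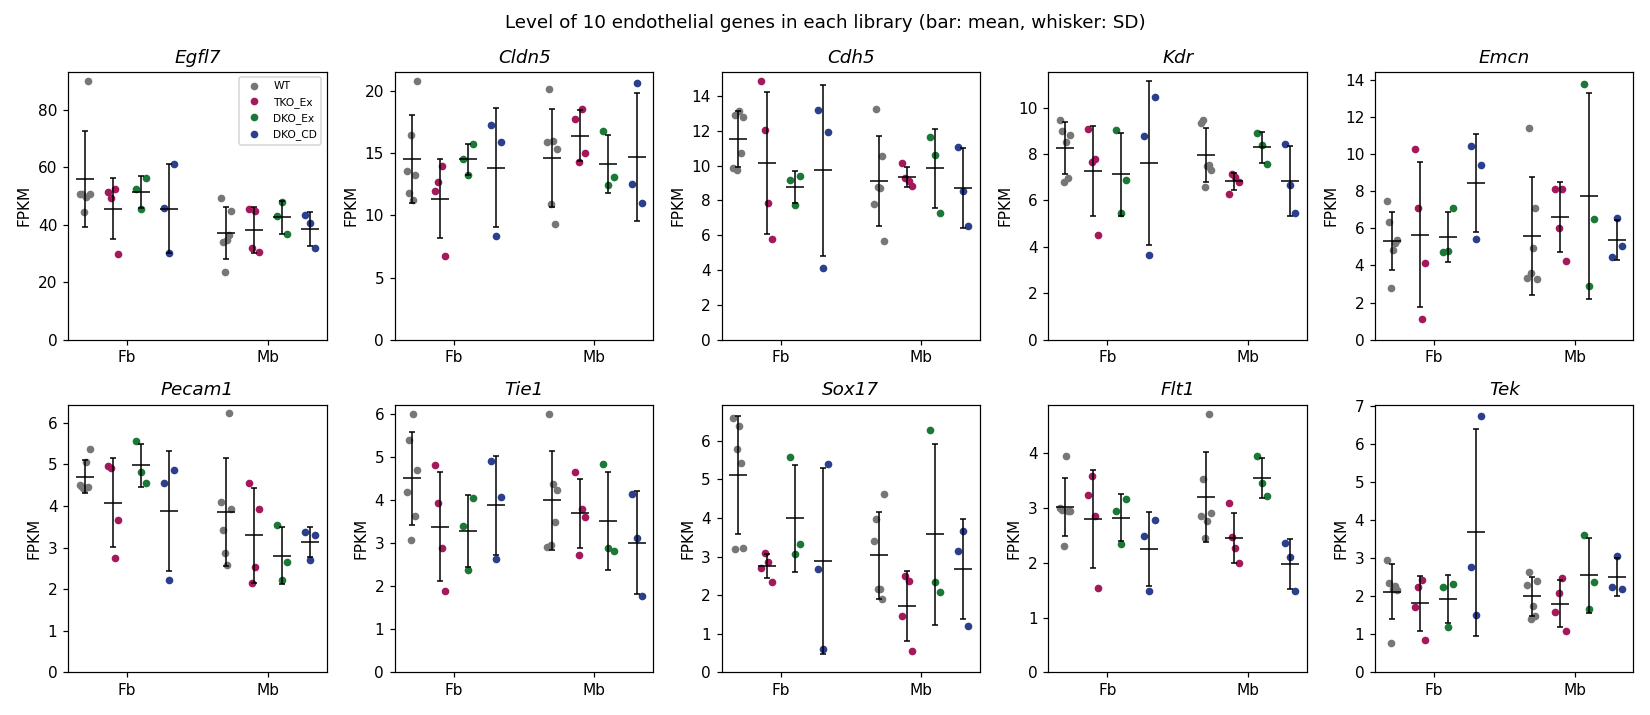
FPKM of each of the 10 endothelial genes in the 32 libraries, by tissue (Fb, Mb) and group (colour), with the group mean and SD in black. Egfl7 lies between 23.4 and 90.0 FPKM, above the range of each other gene, and mutant and WT points overlap in nearly all panels.

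Loss of the cadherins was compared with WT in each tissue, to ask whether the vessel genes change in heads with an open neural tube or a cranial defect. No member passed the test in any of the 6 comparisons (limma on log2(FPKM + 1), Benjamini-Hochberg adjusted p under 0.05 over all genes tested). Few genes of any kind did. In the Mb, the share of all genes called was 0.0898% in TKO_Ex, 0.0903% in DKO_Ex and 0.0375% in DKO_CD. In the Fb it was 0.0603% in TKO_Ex, 0.0759% in DKO_Ex and 0.0378% in DKO_CD. The lowest adjusted p of a member was 0.382, for Sox17 in the TKO_Ex Fb. At an unadjusted p under 0.05 there were 3 members over the 6 comparisons, 1 each in the DKO_CD Mb, the TKO_Ex Fb and the DKO_Ex Fb, where 6.69%, 8.66% and 7.01% of all genes reached that mark. No member did in the Mb of TKO_Ex (8.38% of all genes) or DKO_Ex (5.46%), nor in the Fb of DKO_CD (8.44%). Because libraries are bulk tissue, fewer endothelial cells and less RNA per endothelial cell cannot be told apart.

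In the open Mb of TKO_Ex, 6 of the 10 genes had values below WT and 4 above, with a median log2 difference of -0.09 against 0.02 over all genes. Egfl7 was at 45.7, 31.8, 44.7 and 30.5 FPKM in the 4 TKO_Ex Mb libraries, against 23.4 to 49.3 (median 35.5) in WT, so the mutant libraries lay inside the WT range. Cdh5 was at 10.2, 9.28, 9.13 and 8.83 FPKM against 5.69 to 13.3 (median 8.73) in WT. Its log2 difference was 0.07 (95% interval -0.33 to 0.47), which leaves room for a modest change in either direction. The lowest value in this comparison was that of Sox17, at 1.47, 2.51, 2.38 and 0.564 FPKM against 1.91 to 4.62 (median 2.79) in WT. Its log2 difference was -0.59 (SE 0.28), with an adjusted p of 0.614 by limma. The highest was that of Emcn, 0.29 (SE 0.31). Without replicate 3, whose Cdh6 level was that of WT, no member passed either.

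In the DKO_Ex Mb, 7 genes were above WT and 3 below, with a median of 0.11 against 0.03. This rested on replicate 1, without which 6 genes were below WT and the median was -0.07, and by the GEO records 6 were below as well, with a median of -0.10. Emcn had the highest value, 0.31 (95% interval -0.67 to 1.29), from libraries at 13.8, 2.88 and 6.53 FPKM. It too turned without replicate 1, to -0.17. Pecam1 had the lowest, -0.33 (-0.85 to 0.19). In the DKO_CD Mb the lowest was Flt1, at 2.36, 2.11 and 1.48 FPKM against 2.44 to 4.72 (median 2.88) in WT. The 3 libraries lay just below all 6 WT libraries, which held for 3.38% of all genes in either direction. The log2 difference of Flt1 was -0.48 (SE 0.21), with an unadjusted p of 0.0398 and an adjusted p of 0.727 by limma, and it was 0.13 when the groups followed the GEO records. Cldn5 there differed by 0.00 (95% interval -0.56 to 0.56). The summed macrophage markers of these libraries were 3.56 to 5.44 FPKM against 0.225 to 1.62 in the WT Mb, and the summed mesenchyme markers 214.9 to 321.2 against 125.8 to 243.5. Their part in the values was not tested.

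In the Fb of TKO_Ex all 10 genes had values below WT, with a median log2 difference of -0.21 against 0.02 over all genes, and with Flt1 nearest to 0 (-0.10). Sox17 was at 2.71, 3.08, 2.87 and 2.35 FPKM. WT libraries were at 3.20 to 6.59 FPKM (median 5.62), so all 4 mutant libraries lay below all 6 of WT. Groups without overlap, in either direction, made up 2.23% of all genes. The Sox17 difference was -0.66 (SE 0.20, 95% interval -1.11 to -0.21), with an unadjusted p of 0.0077 and an adjusted p of 0.382 by limma. It ranged from -0.76 to -0.59 when any 1 library was left out. The other 9 genes overlapped with WT.

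The common direction in the TKO_Ex Fb leaned on replicate 4. In that library the 10 genes summed to 61.3 FPKM, against 96.8 to 114.9 in the other 3 TKO_Ex Fb libraries and 96.5 to 144.8 in WT. Without it the median moved from -0.21 to -0.09 and 8 of 10 genes stayed below WT. Surface ectoderm markers, which are keratins, adhesion genes and transcription factors of the skin precursor, summed to 241.4 FPKM in the same library. They summed to 96.1 to 181.2 in the other 3 and to 64.8 to 108.7 in WT. Cranial mesenchyme markers summed to 159.0 FPKM there and to 183.3 to 219.9 in the other 3, so all 4 TKO_Ex Fb libraries lay below those of WT (234.0 to 267.0), as they did for Sox17. The part of these tissues in the result was not tested.

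In the DKO_Ex Fb, Cdh5 was at 9.16, 7.73 and 9.41 FPKM against 9.72 to 13.1 (median 11.8) in WT. The groups did not overlap, as for 3.7% of all genes. Its log2 difference was -0.35 (SE 0.14, 95% interval -0.66 to -0.05), with an unadjusted p of 0.0266 and an adjusted p of 0.618 by limma. The summed mesenchyme markers of these 3 libraries, 175.9 to 199.9 FPKM, also lay below those of WT (234.0 to 267.0), and their part in the value was not tested. Tie1 had the lowest value, -0.36 (SE 0.21), and Pecam1 and Emcn the highest, both 0.07; Pecam1 was at -0.27 by the GEO records. In the DKO_CD Fb, Sox17 was at 2.67, 0.598 and 5.40 FPKM, a difference of -0.82 (95% interval -1.70 to 0.05). Emcn was at 10.4, 5.43 and 9.41 FPKM against 2.77 to 7.45 in WT, a difference of 0.57 (-0.01 to 1.16).

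In the DKO_CD Fb the direction rested on a single library. Replicate 2 had the lowest sum of the 10 genes among all 32 libraries, 60.2 FPKM, where the other 2 libraries had 112.8 and 132.6. Without it the number of genes below WT fell from 8 to 3, the median moved from -0.23 to 0.07, and Sox17 stood at -0.29 (adjusted p = 0.840 by limma). That library held 221.0 FPKM of summed surface ectoderm markers, against 102.3 and 86.0 in the other 2, and 120.9 FPKM of mesenchyme markers, against 245.0 and 278.3. The part of these tissues in the value was not tested.

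**Figure D2:**
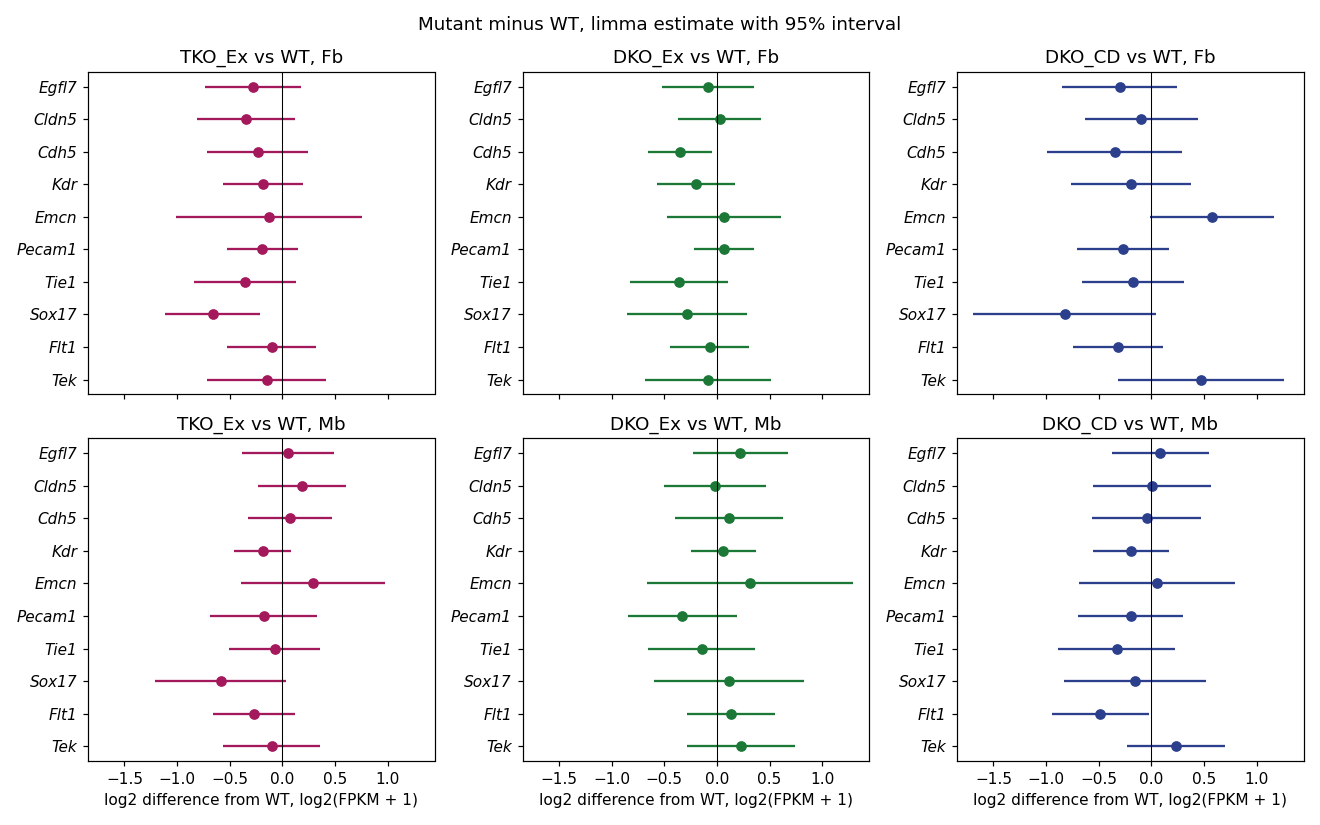
Mutant minus WT difference in log2(FPKM + 1) for each gene, in the Fb (top) and Mb (bottom), as limma estimates with 95% intervals. All but 3 intervals include 0 (Flt1 in the DKO_CD Mb, Sox17 in the TKO_Ex Fb and Cdh5 in the DKO_Ex Fb), and in the TKO_Ex Fb all 10 estimates lie left of 0.

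The effect of a mutation was next compared between the tissues (Mb effect minus Fb effect). No member passed in TKO_Ex, DKO_Ex or DKO_CD, where 0.0149%, 0% and 0.00746% of all genes were called. At an unadjusted p under 0.05 no member was reached in any of the 3, against 6.5%, 3.88% and 4.83% of all genes. The intervals were wide. For Cdh5 the difference between the tissues was 0.31 (95% interval -0.30 to 0.92) in TKO_Ex and 0.47 (-0.11 to 1.04) in DKO_Ex. For Cldn5 in TKO_Ex it was 0.54 (-0.08 to 1.15), with an adjusted p of 0.802 by limma. The widest interval of a member reached 1.12 to either side of its estimate in TKO_Ex, 1.13 in DKO_Ex and 1.09 in DKO_CD. A difference between the tissues smaller than the reach of a member's own interval was not detectable with 3 to 6 libraries a group.

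The tissues themselves were compared in WT and over all 4 groups with group as a term. In WT no member passed the test (limma), where 8.26% of all genes did, and at an unadjusted p under 0.05 there were 2, Egfl7 and Sox17, where 20.9% of all genes reached that mark. Over the 4 groups, 2 of the 10 passed, Egfl7 and Pecam1, both lower in the Mb. The share of all genes called there was 17%, of which 7.93% of all genes were lower in the Mb. A count of 2 among 10 is too close to this background to set the members apart.

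Egfl7 ranged from 23.4 to 49.3 FPKM (median 38.6) in the 16 Mb libraries and from 29.9 to 90.0 (median 50.6) in the 16 Fb libraries. The tissues overlapped, but the Mb mean was below the Fb mean in each of the 4 groups, at 0.663 to 0.846 of it. The log2 difference was -0.36 (SE 0.11, adjusted p = 0.0219 by limma) over all groups and -0.58 (SE 0.19, adjusted p = 0.0852) in WT alone. Pecam1 ranged from 2.15 to 6.23 FPKM (median 3.34) in the Mb and from 2.21 to 5.56 (median 4.55) in the Fb. Its Mb mean was likewise below the Fb mean in each group, at 0.564 to 0.820 of it. The difference was -0.32 (SE 0.10, adjusted p = 0.0283) over all groups and -0.27 (SE 0.16, adjusted p = 0.374) in WT. Both calls were lost when libraries were rescaled without red cell and mitochondrial genes, although the differences were nearly as large, -0.33 for Egfl7 (adjusted p = 0.0693) and -0.30 for Pecam1 (0.0829), and that for Pecam1 also without DKO_Ex Mb replicate 2 (0.0524).

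Sox17 had the same direction, with 0.564 to 6.29 FPKM (median 2.36) in the Mb and 0.598 to 6.59 (median 3.21) in the Fb. Its difference of -0.38 (SE 0.17) did not pass (adjusted p = 0.143 by limma), but it passed without DKO_CD Fb replicate 2, the library lowest in the 10 genes (-0.48, adjusted p = 0.0252). For the receptors the intervals lay around 0. Kdr differed by 0.00 (95% interval -0.20 to 0.20), Flt1 by 0.02 (-0.17 to 0.20), Tie1 by -0.06 (-0.30 to 0.17) and Tek by -0.01 (-0.29 to 0.27). Cldn5 was at 0.14 (-0.10 to 0.39), Cdh5 at -0.11 (-0.38 to 0.15) and Emcn at 0.04 (-0.38 to 0.45).

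**Figure D3:**
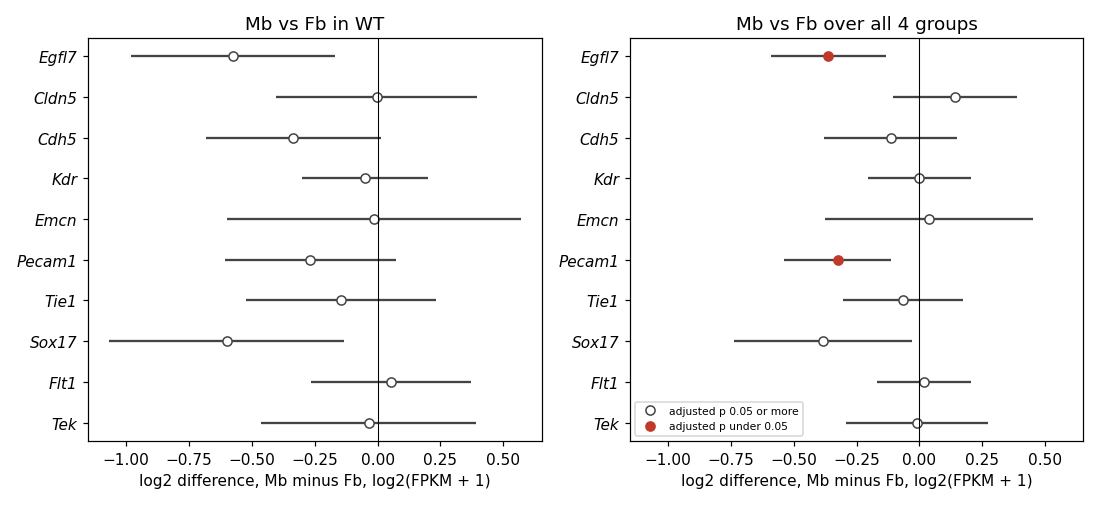
Mb minus Fb difference in log2(FPKM + 1) for the 10 genes in WT (left) and over all 4 groups (right), as limma estimates with 95% intervals; filled points passed an adjusted p of 0.05. Egfl7 (-0.36) and Pecam1 (-0.32) passed over all groups, and Kdr, Flt1 and Tek lie at about 0.

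Markers of other tissues also differed between the Mb and Fb pieces, beside 17% of all genes called over the 4 groups. Surface ectoderm markers summed to 24.3 to 79.5 FPKM in the Mb and 64.8 to 241.4 in the Fb, and 6 of 7 tested were lower in the Mb. Cranial mesenchyme markers summed to 125.8 to 321.2 and 120.9 to 278.3 FPKM, with 6 of 10 tested lower (Alx4 -1.18, Prrx1 -1.17, Foxc1 -0.74) and 2 higher in the Mb (Col1a1 1.17, Col3a1 0.83). Of 8 neuroepithelial genes 4 were higher in the Mb, led by Fabp7 (2.26) and Hes5 (1.67). Their part in the differences of Egfl7 and Pecam1 was not tested. The 10 red cell genes gave no call in either direction, with a median of 0.41.

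Other endothelial genes were read from a list of 27. Of these, 25 were tested over all groups and 2 passed, beside 17% of all genes called. Fli1, an ETS factor of endothelium, was lower in the Mb (-0.36, adjusted p = 0.0145 by limma). Tal2 was higher (2.52), with 28.0 ± 8.84 FPKM in the Mb and 3.94 ± 1.48 in the Fb (SD, n = 16); this gene is also known from midbrain neurons. The median of the 25 was -0.04, as was that of the 10 members, against 0.00 over all genes. In WT alone, Plvap, a protein of the diaphragms of fenestrated and early vessels, was lower in the Mb (-0.62, adjusted p = 0.0203). Ramp2 (21.6 FPKM), Cd34 (21.6 FPKM) and Plvap (18.5 FPKM) were between Egfl7 and Cldn5 in level, whereas Lyve1, a lymphatic and macrophage marker, was listed at 0 in 25 libraries.

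Among 15 arterial and venous genes, 3 were higher and 4 lower in the Mb, beside 17% of all genes called in either direction. Cxcr4, a chemokine receptor, was higher by a log2 difference of 1.04, Hey2 was higher by 0.83 and Dll4, a Notch ligand of arterial tip cells, by 0.46. Unc5b, a netrin receptor, had -1.84, Gja5, an arterial gap-junction gene, -0.71, Hey1 -0.44 and Ephb4, a receptor of veins, -0.17. Several of these genes are also used by neural cells, and bulk levels do not show the cell type. Nr2f2, a transcription factor of veins, was at 37.9 FPKM and did not pass.

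Among the ligands that act on these vessels, some differed between the tissues. The counts in this paragraph are to be read beside the 17% of all genes called over the 4 groups. Wnt7b, a signal from the neural tube that drives vessel entry and barrier genes, averaged 3.19 ± 1.93 FPKM in the Mb and 26.6 ± 5.91 in the Fb (SD, n = 16), a log2 difference of -2.81 (adjusted p = 3.96e-15 by limma). Wnt7a, which acts through the same receptors, went the other way, with 4.08 ± 3.09 FPKM in the Mb and 2.13 ± 1.75 in the Fb (0.67, adjusted p = 0.0361). Cxcl12, the ligand of Cxcr4, was lower in the Mb (-0.91), as was Angpt1, the activating ligand of Tek (-0.33, adjusted p = 0.0294). Thus 1 of 10 tested ligands was higher and 3 lower, and the abundant VEGF genes Vegfb (43.0 FPKM) and Vegfa (34.8 FPKM) did not pass. Of 9 early blood-brain barrier genes tested, Mfsd2a, a lipid transporter, was higher in the Mb (1.36; 11.1 ± 2.66 against 3.81 ± 1.44 FPKM), while Adgra2, a co-receptor for Wnt7 proteins (-0.40), and Slc16a1 (-0.38) were lower. Slc2a1, the glucose transporter, was the most abundant of them at 150.4 FPKM and did not pass. Of 6 mural cell genes tested, Acta2 (1.94) and Tagln (1.31), genes of contractile cells, were higher in the Mb. The list as a whole did not go that way, with 3 of the 6 above 0 and a median of -0.003. In WT alone these 2 were also higher, and Mcam was lower (-0.56, adjusted p = 0.0404 by limma).

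No macrophage marker averaged 1 FPKM in a fit, so that list was not tested. In the 6 mutant comparisons no gene of the other lists passed (limma). These were other endothelial, arterial and venous, ligand, barrier, mural, red cell, mesenchymal, ectodermal and neuroepithelial genes, of which 96 were tested in the Mb and 101 in the Fb. At an unadjusted p under 0.05 there were 4, 9 and 15 of them in the Mb of TKO_Ex, DKO_Ex and DKO_CD and 17, 13 and 10 in the Fb, to be read beside the shares of all genes given above (8.38%, 5.46% and 6.69% in the Mb and 8.66%, 7.01% and 8.44% in the Fb). Cranial mesenchyme markers made up 7 of the 15 in the DKO_CD Mb and 5 each of those in the Fb of TKO_Ex and DKO_Ex, out of 10 tested. Nor did any pass for the tissue differences of the mutant effects, where 11, 11 and 18 had an unadjusted p under 0.05 in TKO_Ex, DKO_Ex and DKO_CD, beside 6.5%, 3.88% and 4.83% of all genes.

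The 10 genes varied together from library to library. Each library was set against the mean of its own group and tissue, which removes the differences described above. Over the 32 libraries all 45 pairs of members then had a positive Pearson correlation of these deviations, from 0.12 (Pecam1 and Cldn5) to 0.78 (Cdh5 and Kdr), with a median of 0.49. The median correlation of a member with a gene that was no member was 0.03. Cdh5 also went with Flt1 (0.75) and Tie1 (0.74). Against the mean of the other 9, Kdr had the highest value (0.80) and Pecam1 the lowest (0.46). All values within a library share its depth and its dissection. Without TKO_Ex Fb replicate 4 and DKO_CD Fb replicate 2, a step chosen after seeing the data, 40 of 45 pairs stayed positive and the median was 0.31.

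Particular libraries were low or high in the whole set. All 10 genes lay below the mean of their group in 5 libraries, DKO_CD Fb replicate 2 (mean log2 deviation -0.65), TKO_Ex Fb replicate 4 (-0.44), WT Mb replicate 3 (-0.31), DKO_Ex Fb replicate 2 (-0.21) and DKO_Ex Mb replicate 3 (-0.16). All 10 lay above it in DKO_CD Fb replicate 3 (0.43), DKO_Ex Mb replicate 1 (0.36) and TKO_Ex Fb replicate 2 (0.24). The low libraries included a WT library. WT Mb replicate 2 was high as well (0.34), though 2 of its genes lay below the mean. Deviations are taken from the mean of a library's own group, so in a small group a low library raises the others.

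**Figure D4:**
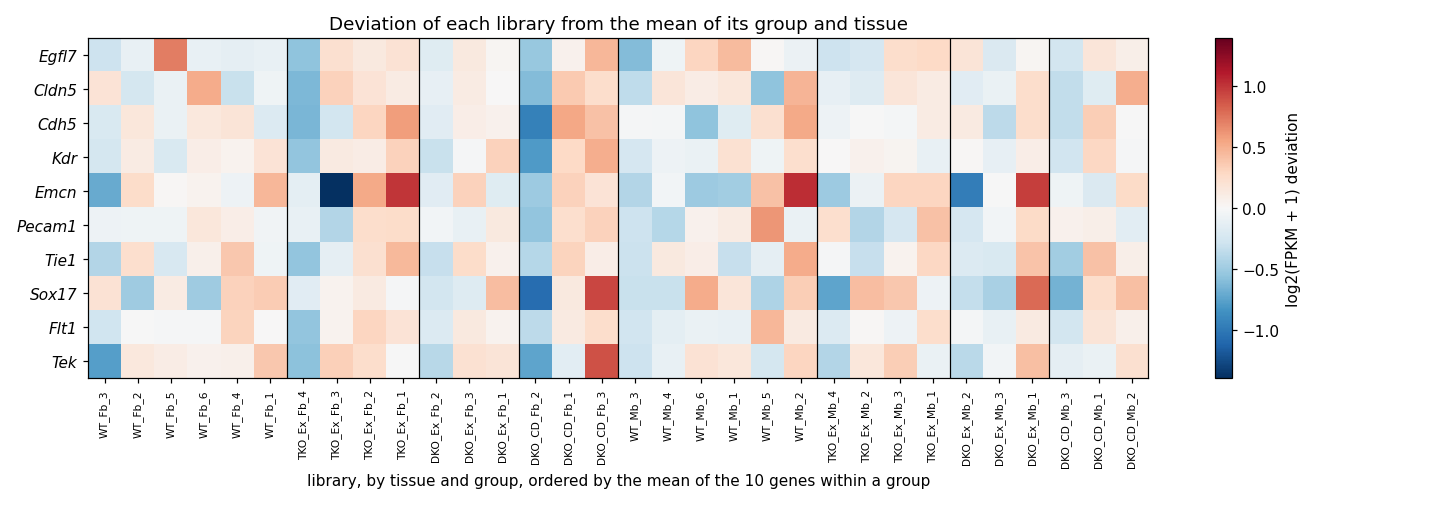
Deviation in log2(FPKM + 1) of each gene (rows) in each library (columns) from the mean of its group and tissue, red above and blue below, with black lines between groups. DKO_CD Fb replicate 2 and TKO_Ex Fb replicate 4 are blue in all 10 rows, and Emcn, Sox17 and Tek show the widest swings.

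Across the same 32 libraries, the mean deviation of the 10 genes went with that of the other endothelial genes (Pearson r = 0.90 as a description) and with that of the cranial mesenchyme markers (0.78), and ran against that of the surface ectoderm markers (-0.61). For mural cell markers r was 0.32, for red cell markers 0.07 and for neuroepithelial markers -0.17. Without the 2 libraries lowest in the 10 genes, these values were 0.79 for endothelium, 0.61 for mesenchyme, -0.36 for surface ectoderm, 0.43 for mural cells, 0.14 for red cells and -0.08 for neuroepithelium.

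**Figure D5:**
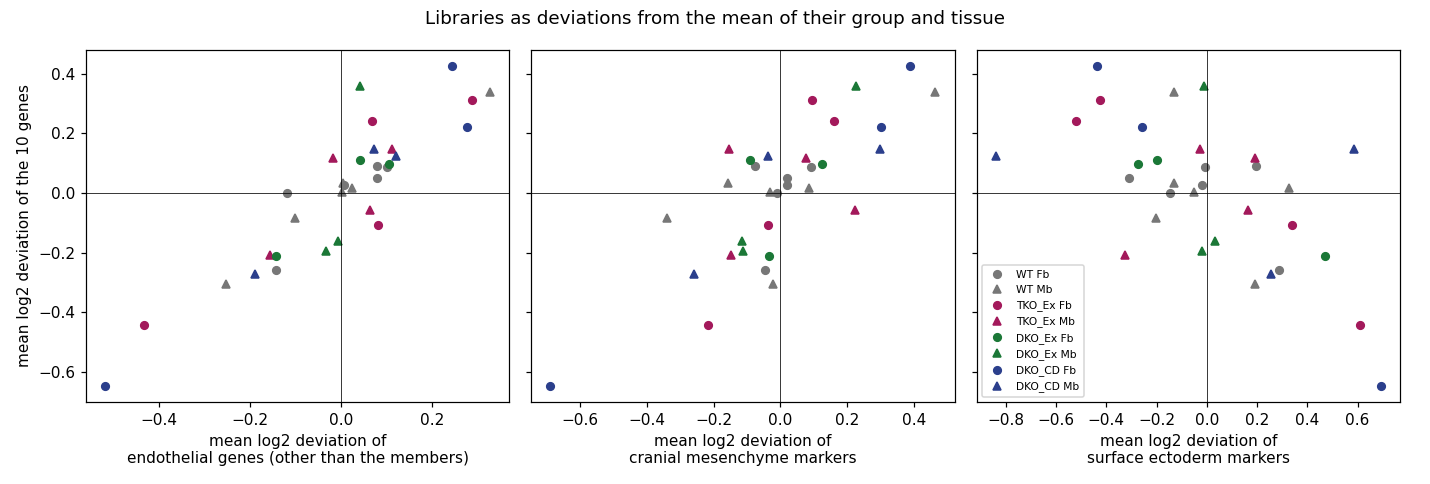
Mean deviation of the 10 genes (vertical) against that of other endothelial genes, cranial mesenchyme markers and surface ectoderm markers (horizontal), in log2(FPKM + 1) from the mean of the group and tissue; each point is a library. The points rise from left to right in the first panels (r = 0.90 and 0.78) and fall in the last (r = -0.61), with DKO_CD Fb replicate 2 at the lower end of each.

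Of 9148 other genes that averaged 5 FPKM or more, the 8 whose deviations were most like the mean of the members over the 32 libraries were Cd34 (r = 0.87), Nid1 (0.85), Plvap (0.82), Alx4 (0.81), Pdgfrb (0.80), Sox18 (0.76), Fbn2 (0.75) and Pcnx3 (0.73). Cd34, Plvap and Sox18 are in the list of other endothelial genes. Nid1 encodes the basement membrane protein nidogen-1, Fbn2 a fibrillin of the extracellular matrix, Alx4 a transcription factor of cranial mesenchyme, and Pdgfrb a receptor of pericytes and mesenchyme. The other 5 genes of the list of other endothelial genes at this level ranked 15 (Ets1), 72 (Eng), 284 (Ramp2), 1613 (Esam) and 8725 (Tal2, r = -0.39). Tal2 thus did not go with the members.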

How the data were processed

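RNA was extracted from Fb and Mb tissue, 16 samples of each, made into directional libraries and sequenced by the authors. The deposited values are FPKM per Ensembl gene, and the submitters' processing notes name TopHat2, Cufflinks, HTSeq and DESeq2 with GRCm38 (mm10), without versions. Values of 65 repeated identifiers were summed. FPKM hold no raw counts, so a count model was not used here. Genes that averaged 1 FPKM or more in a fit were tested with limma 3.58.1 (R 4.3.3, mean-variance trend) on log2(FPKM + 1), a scale that understates changes of low genes, with Benjamini-Hochberg adjustment over all genes tested and a threshold of 0.05. Intervals are at 95%. The scripts were tested on simulated data.

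Approximate fragments came from the steps between low FPKM of 771 long single-transcript genes, assuming a fragment length of 200 bases. Of these values, 78.9% to 87.6% per library fell within 0.1 of a whole fragment. Positions are from GENCODE M21 (48218 identifiers matched) and sequences from RefSeq on GRCm38.p6.

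Groups follow the column headings, and the GEO records were an alternative. The sources used here do not say whether Fb and Mb libraries of one number share an embryo, and p-values measure the spread between libraries. The members and gene lists were chosen with earlier results of these data known. Genes named are the 10 members, up to 4 called genes of each list by size of difference with up to 2 of the highest level, and the 8 genes most alike. Foxc2, in the mesenchyme list, was not analysed here. Alternatives were other pseudocounts, filters, scalings and fits, a replicate block, and leaving out each library.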

Additional observations from a re-analysis of the deposited data

Results flagged for a closer look

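In 40 sets of libraries of 1 gene, group and tissue with at least 4 libraries, 3 had a library far from the others, where chance gives about 1 in 20. Egfl7 in WT Fb replicate 5 was at 90.0 FPKM, with the nearest WT Fb library at 50.7. Egfl7 in TKO_Ex Fb replicate 4 was at 29.9 FPKM, with the nearest at 49.2, in the library in which all 10 genes were low. Tek in WT Fb replicate 3 was at 0.776 FPKM, with the nearest at 2.17.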

How the results depend on the processing

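Between mutants and WT, no member was called in 64 fits under other settings or in 56 that left out a library, and the lowest adjusted p was 0.315. No member was called for the tissue differences of mutant effects in 85 fits. Over all 4 groups the number of members lower in the Mb was 1 among genes averaging 5 FPKM or more (Egfl7, since Pecam1 has a lower mean and was not tested) and 0 after rescaling without red cell and mitochondrial genes, where the differences stayed at -0.33 for Egfl7 and -0.30 for Pecam1. It ranged from 1 to 3 when a library was left out. In WT that range was 0 to 1, with Egfl7 called without WT Mb replicate 1 (-0.66, adjusted p = 0.0428 by limma). Directions that turned belonged to values that had not passed: by the GEO records, Flt1 in the DKO_CD Mb (0.13), Pecam1 in the DKO_Ex Fb (-0.27), and the tissue differences of the effects on Pecam1 in DKO_Ex (0.073) and Emcn in DKO_CD (0.25). With a library left out, Emcn in the DKO_Ex Mb ranged from -0.17 (without DKO_Ex Mb replicate 1) to 0.79, Flt1 in the TKO_Ex Fb from -0.21 to 0.078 (without TKO_Ex Fb replicate 4), Pecam1 in the DKO_Ex Fb from -0.0017 (without DKO_Ex Fb replicate 1) to 0.12, and Flt1 between the tissues in WT from -0.038 (without WT Mb replicate 5) to 0.12. The cause was not tested. By median fragments, depth was lowest for Tek (25.3) and Sox17 (25.4).

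Same-numbered Fb and Mb libraries had correlated deviations over 0.1 in 10 of 16 pairs (-0.006 to 0.20), and 13 of 16 correlated best with their own number. For mutants and WT of the same number, 0 pairs were over 0.1. Since not every Fb and Mb pair was over 0.1 and no source ties a number to an embryo, the Fb and Mb numbers were taken as a hint of pairing only. With a replicate block, 2 members, Pecam1 and Egfl7, were called over all 4 groups, and 0 in each of the other comparisons; Egfl7 in WT stood at -0.58 (adjusted p = 0.0755 by limma).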
